A study of Rattus norvegicus with 218 samples.

Results

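The pore-forming subunits of the high-voltage-activated calcium channels were followed in neurons of the vagal dorsal motor nucleus (DMV), whose cells send motor fibres through the vagus nerve to the viscera. The members are the 5 assays whose gene symbol is Cacna1a, Cacna1b, Cacna1c, Cacna1d or Cacna1e, out of 165 genes on the panel, and the rule uses the symbols and no measured value. All animals were adult male Sprague Dawley rats. Naive rats had neither operation. Sham rats received ketamine/xylazine and had the femoral vessels of both legs exposed with a thread left untied. In rats given remote ischemic preconditioning (RIPC), which had the same anaesthesia and incisions, the thread was tied to stop blood flow to the legs and then removed, and brains were taken hours after reperfusion. NeuN-stained neurons were cut out of the left or right DMV with a laser, alone or in pools of 2 to 8 cells, and transcripts were measured by multiplex RT-qPCR. The sources name ketamine/xylazine for the operated rats only, so anaesthesia and surgery cannot be told apart in comparisons with naive rats.

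High-voltage-activated channels open when a neuron is strongly depolarised, as during an action potential, and the calcium that enters drives transmitter release, afterhyperpolarisation and calcium-dependent transcription. Cacna1a encodes the pore of P/Q-type channels and Cacna1b that of N-type channels, the principal channels for transmitter release at nerve endings. Cacna1c and Cacna1d encode L-type channels, which sit largely on the cell body and dendrites, Cacna1d channels opening at more negative voltages than Cacna1c channels. Cacna1e encodes the R-type channel. The T-type channels, encoded by Cacna1g, Cacna1h and Cacna1i, open near rest and serve as the low-voltage comparison.

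The table held 213 captured samples from 10 rats (3 naive, 4 sham and 3 RIPC), each with a cycle threshold (Ct) or no value for 168 assays. A Ct is the cycle at which fluorescence crosses a limit, so that 1 cycle less is about a doubling of template, and no value means that the assay stayed below its limit of detection. Samples with a Ct in at least 25% of the assays were kept, which left 98 single neurons (44 to 149 assays, median 69) and 88 pools (43 to 135 assays, median 96). The single neurons were unevenly spread, with 54 of the 98 from naive replicate 3. The neuronal genes Camk2a, Eno2, Scn2a, Rgs4 and Map2 had a Ct in 95, 92, 94, 85 and 80 of the 98 single neurons, and all 5 in 66. Chat, the acetylcholine-synthesis enzyme of vagal motor neurons, had a Ct in 68, and the astrocyte gene Gfap in 79. The part of Gfap in the results on the calcium channels was not tested.

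Of the 5 members, 4 were found in most single neurons and 1 in few. Cacna1e had a Ct in 94 of 98 single neurons (95.9%) and Cacna1b in 93 (94.9%). Cacna1a followed with 78 neurons (79.6%, Wilson 95% interval 70.6 to 86.4%) and Cacna1d with 68 (69.4%, 59.7 to 77.6%). Cacna1c, the other L-type gene, was found in only 9 neurons (9.18%, 4.91 to 16.5%). These intervals cover counting error only, and neurons of 1 rat are not independent. The T-type genes lay in between, with 27 neurons for Cacna1g, 56 for Cacna1h and 44 for Cacna1i. The Cacna1c share depended on naive replicate 3. Without that rat it was 7 of 44 neurons (15.9%), and the mean over the 8 rats with at least 2 single neurons was 21.3%. Assays may differ in efficiency, so the order is one of detection and not of transcript number.

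Within the animals with at least 2 single neurons the same order held only in part. Cacna1b was found in every single neuron of 6 of the 8 rats, the others being naive replicate 3 with 51 of 54 neurons and sham replicate 4 with 3 of 5. Cacna1e was found in every single neuron of the 3 RIPC rats and of the 3 sham rats, in 51 of 54 neurons of naive replicate 3 and in 2 of 3 of naive replicate 2. Cacna1a ranged from 1 of 3 neurons in sham replicate 2 to 3 of 3 in naive replicate 2, and stood at 44 of 54 in naive replicate 3. Cacna1d ranged from 2 of 4 neurons in RIPC replicate 1 to 3 of 3 in both naive replicate 2 and sham replicate 2. Cacna1c was not detected in the 7 neurons of sham replicate 1 and the 11 of RIPC replicate 3, was seen in 2 of 54 neurons of naive replicate 3, and reached 2 of 4 in RIPC replicate 1.

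The P/Q, N, L and R types occurred together in the same neuron. Cacna1a, Cacna1b, Cacna1d and Cacna1e were all detected in 60 of 98 single neurons (61.2%, Wilson 95% interval 51.3 to 70.3%), of which 6 also had Cacna1c. The next combinations were Cacna1a, Cacna1b and Cacna1e without an L-type gene in 14 neurons, and Cacna1b with Cacna1e alone in 8. Only 6 neurons showed a single member, which was Cacna1b in 3 and Cacna1e in 3, and the 3 with Cacna1b alone came from 1 rat. No neuron lacked all 5 members, a count of 0 of 98 that allows a share of up to 3.06% if neurons were independent. Among the pools 1 of 88, from sham replicate 4 with 52 assays, had none of the 5. The 4 genes were found together in 36 of 54 neurons of naive replicate 3 and 2 of 3 of naive replicate 2, in 7 of 11 and 6 of 10 in RIPC replicates 3 and 2, in 2 of 4 in RIPC replicate 1, and in 3 of 7, 2 of 5, 1 of 3 and 1 of 1 in sham replicates 1, 4, 2 and 3.

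**Figure D1:**
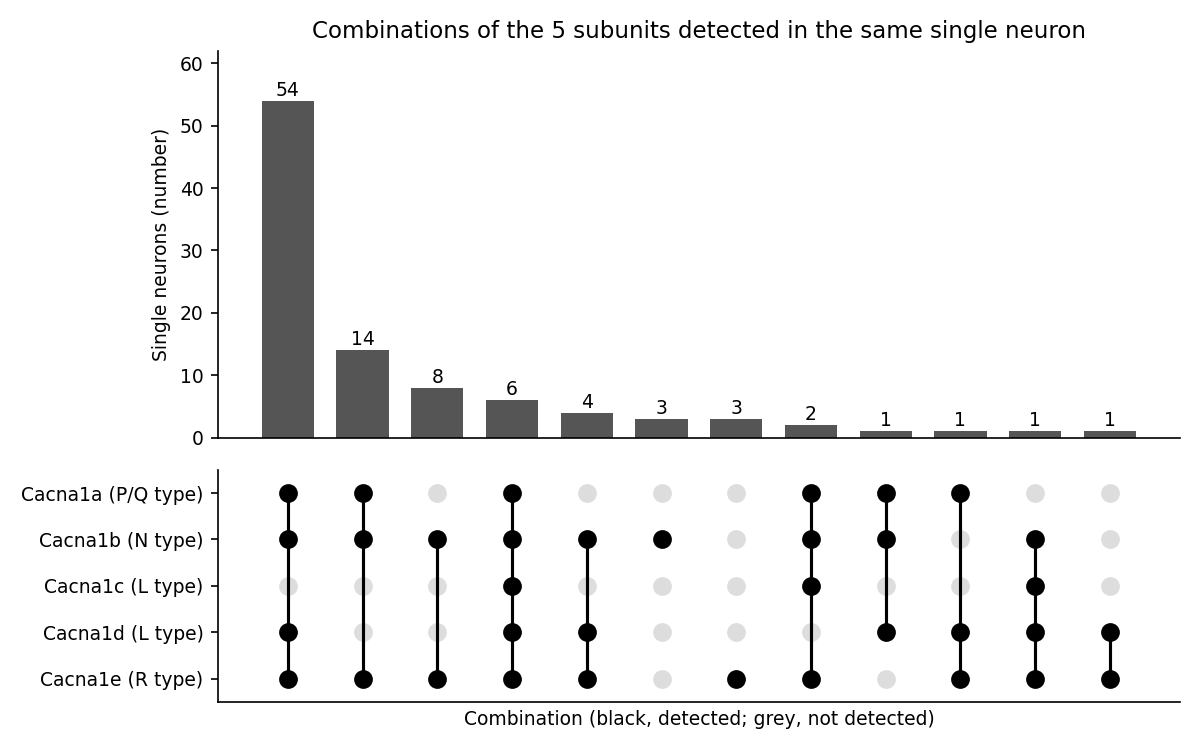
Number of single neurons (vertical axis, of 98) with each combination of the 5 subunits, the dots under each bar marking the genes with a Ct (black) and without (grey). The full set without Cacna1c was the most frequent combination with 54 neurons, and each neuron had at least 1 member.

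In single neurons Cacna1c was never the only member found, while 1 pool of RIPC replicate 1, with 43 assays, held Cacna1c alone. All 9 single neurons with Cacna1c also had Cacna1b and Cacna1e, 8 had Cacna1a and 7 had Cacna1d. The L-type genes were therefore split among neurons as 7 with both, 2 with Cacna1c alone, 61 with Cacna1d alone and 28 with neither. Cacna1a and Cacna1d were both present in 62 neurons and both missing in 14, with 16 neurons having Cacna1a alone and 6 Cacna1d alone. This pair had the highest phi coefficient among the members (0.43 over 98 neurons), followed by Cacna1a with Cacna1b at 0.34, while Cacna1b with Cacna1e stood at -0.05. The separate shares alone would give 54.1 neurons with both Cacna1a and Cacna1d, against 62 found. For Cacna1b with Cacna1e they would give 89.2, against 89 found. For the 4 common members together this number was not worked out. These coefficients and counts are descriptions over neurons that share animals and that differ in yield.

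The number of members found in a neuron moved with the yield of the sample, counted as the assays with a Ct. That count includes the members' own assays, so part of this relation is fixed by construction. Neurons with 1 member had a median of 53 assays, those with 3 members 62.5 and those with 4 members 77. Among 27 single neurons with 42 to 59 assays, all 4 common members were found in 6, against 33 of 49 neurons with 60 to 83 assays and 21 of 22 with 84 or more. Over these 3 ranges Cacna1a was found in 48.1%, 87.8% and 100% of neurons, and Cacna1d in 37.0%, 75.5% and 95.5%. Cacna1b and Cacna1e started at 85.2% and 88.9% and stood at 100% in the range with the most assays. Cacna1c stayed low throughout, with 1 of 27, 5 of 49 and 3 of 22 neurons. Both Cacna1a and Cacna1d were missing in 12 of 27 neurons of the lowest range, 2 of 49 of the middle one and 0 of 22 of the highest, and both were present in 8, 33 and 21.

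**Figure D2:**
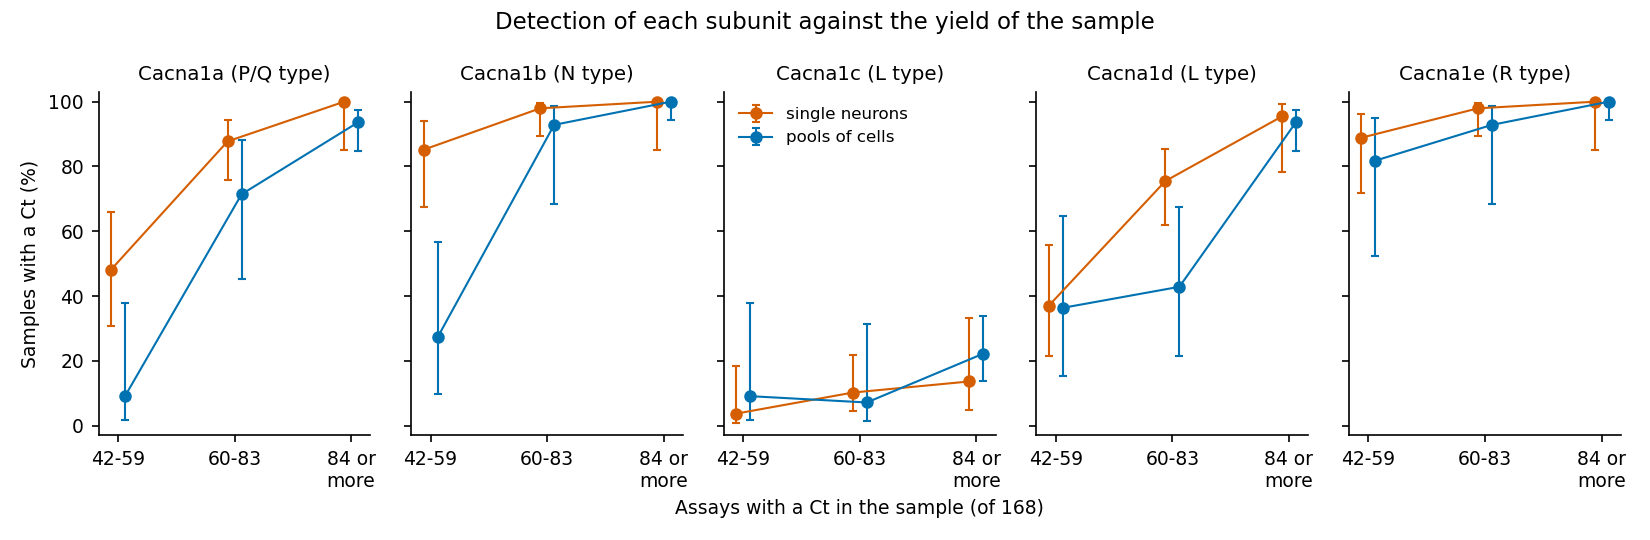
Percentage of samples with a Ct (vertical axis) for each subunit in 3 ranges of yield (horizontal axis, assays with a Ct of 168), for single neurons (orange) and pools (blue) with Wilson 95% intervals. Cacna1a and Cacna1d were found more often at higher yield in both kinds of sample, and Cacna1b is at 27.3% in pools of the lowest range against 85.2% in single neurons.

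In the lowest range of yield pools and single neurons were apart for some members and close for others. Yield was not matched within that range. Of 11 pools with 42 to 59 assays, Cacna1b was found in 3 and Cacna1a in 1, against 23 and 13 of the 27 single neurons in that range. Cacna1d was found in 4 of the 11 pools and 10 of the 27 neurons, Cacna1e in 9 and 24, and no pool there held all 4 common members. Of 5 other neuronal genes, Scn2a was found in 10 of 11 pools and 23 of 27 neurons, Camk2a in 8 and 25, Rgs4 in 7 and 21, Map2 in 2 and 15, and Eno2 in 1 and 24. Gfap was in 0 of 11 pools and 18 of 27 single neurons. The 11 pools came from 6 rats, 4 of them from RIPC replicate 1 and 2 each from naive replicate 1 and sham replicate 4. Naive replicate 2 and sham replicates 1 and 2 gave 1 each. What sets these pools apart was not tested.

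Neurons with the cholinergic gene Chat had Cacna1a in 60, Cacna1b in 68, Cacna1c in 9, Cacna1d in 51 and Cacna1e in 67 of 68 cases. Neurons without Chat had them in 18, 25, 0, 17 and 27 of 30, the 0 allowing a share of up to 10% if neurons were independent. The median yield was 72.5 assays with Chat and 64 without it. Among neurons with 42 to 59 assays, Cacna1b was found in 15 of 15 with Chat and 8 of 12 without, Cacna1a in 9 and 4, Cacna1d in 6 and 4, Cacna1e in 14 and 10, and Cacna1c in 1 and 0. Among those with 60 to 83 assays the counts were 34 of 34 and 14 of 15 for Cacna1b, 32 and 11 for Cacna1a, 27 and 10 for Cacna1d, 34 and 14 for Cacna1e, and 5 and 0 for Cacna1c. Above that range 3 neurons lacked Chat, too few to compare. Over single neurons and pools together, 24 of the 25 samples with Cacna1c also had Chat. The same counts were made for markers of other transmitters. With Gad1 or Gad2, the enzymes of GABA synthesis, Cacna1a to Cacna1e were found in 39, 48, 8, 38 and 48 of 51 neurons, and without them in 39, 45, 1, 30 and 46 of 47, with a median yield of 71 and 68 assays. Cacna1c and Cacna1d were thus in a larger share with them and the other 3 in a smaller one. With Th, the rate-limiting enzyme of catecholamine synthesis, they were found in 48, 55, 7, 46 and 54 of 55 neurons and without it in 30, 38, 2, 22 and 40 of 43, a larger share with Th for all 5, with a median yield of 75 and 63 assays.

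The level of a member in the samples where it was detected was taken as minus Ct, centred on the sample's median over the 35 most detected genes, in cycles, so that a higher value is more transcript relative to that sample. Cacna1b and Cacna1e are among those 35 genes. Over single neurons the Cacna1b level ran from -1.59 to 2.84 cycles with a median of 1.12 and an SD of 0.955, which was the narrowest spread of the 5 in these neurons. Cacna1e ran from -10.0 to 2.25 cycles with a median of -0.22 and an SD of 2.16. The Cacna1e values had a low tail, and in 12 samples of either kind, from 7 rats, the level was below -4 cycles. Of those 12 samples, 11 had a Ct in under 50% of the assays. Cacna1a lay between -5.94 and -0.42 cycles (median -2.89), Cacna1d between -5.26 and 0.80 (median -1.26), and Cacna1c between -14.3 and -4.05 (median -6.45).

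Of the 25 samples with Cacna1c, 11 (44%) had a Ct above 20, while over all genes 4.57% of values were that late. The median Cacna1c Ct was 18.9. When values with a Ct above 20 were counted as not detected, Cacna1c was left in 4.08% of single neurons and Cacna1e in 89.8%, and Cacna1b was unchanged at 94.9%. The samples with Cacna1c came from 9 of the 10 rats.

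**Figure D3:**
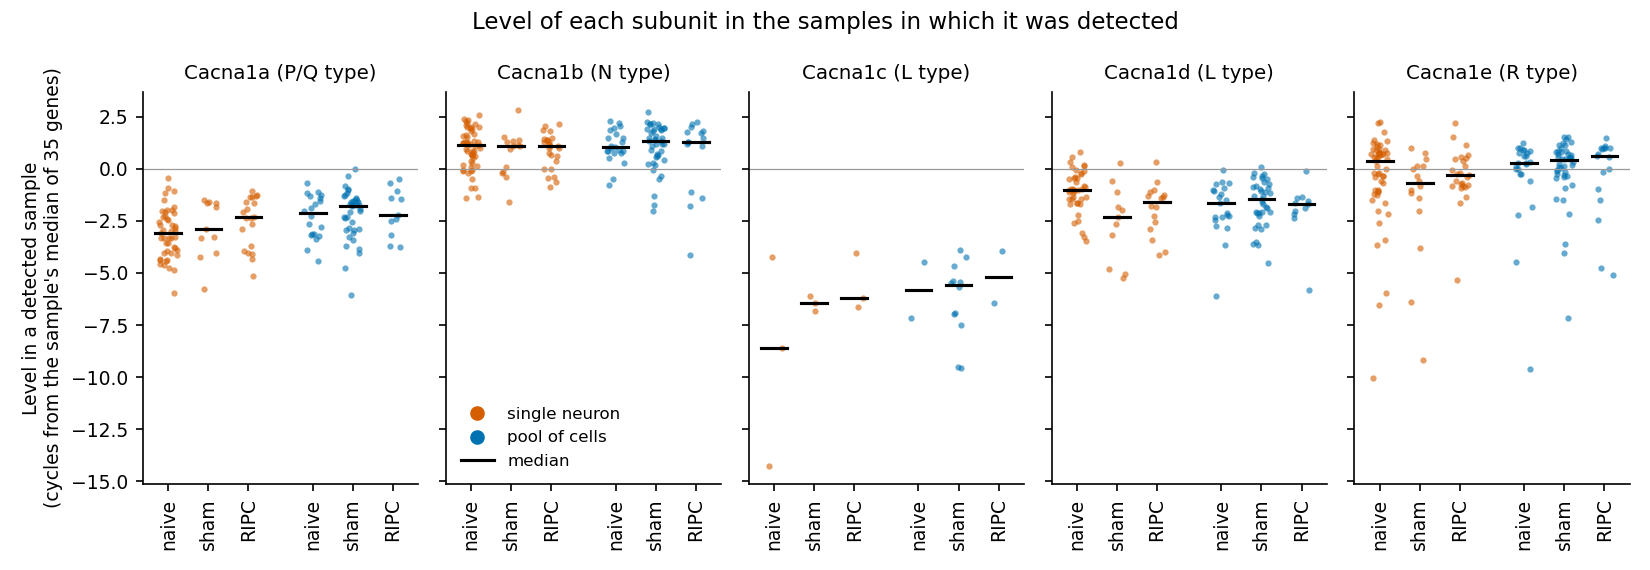
Level of each subunit (vertical axis, minus Ct in cycles from the sample's median of 35 genes) in every sample with a Ct, by treatment, for single neurons (orange) and pools (blue), with black bars at medians. In single neurons Cacna1b is the tightest of the 5 (SD 0.955 cycles), in pools Cacna1a is (SD 1.14 cycles), Cacna1e has a tail of low values down to -10.0 cycles, and all values of Cacna1c are at or below -3.91 cycles.

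Levels of the members were only loosely related to each other across single neurons. Pearson's r was 0.34 for Cacna1b with Cacna1e (89 neurons), 0.28 for Cacna1a with Cacna1b (77 neurons) and 0.00 for Cacna1a with Cacna1d (62 neurons). The genes whose level was most like Cacna1e were Cckar (r = 0.68, 20 neurons), Adra1b (0.57, 21 neurons) and Chat (0.57, 67 neurons). For Cacna1b they included Npy1r (0.63, 20 neurons) and Gabrb1 (0.43, 87 neurons), and for Cacna1d they were Npff (0.61, 21 neurons), Gabre (0.54, 26 neurons) and Cacna1h (0.47, 46 neurons). For Cacna1a the highest value was 0.43 with Adra2a (63 neurons), followed by Htr1d and Nppa, and Cacna1c had too few values. By detection, Cacna1a was most like Ache (phi 0.54), Gabra2 (0.50) and Hsf2 (0.43, tied with Cacna1d). Cacna1d was most like Cacna1a (0.43), Hcn3 (0.41) and Hrh3 (0.39), all over 98 neurons. These values are the highest of 97 to 159 genes compared for each member, and all points share the yield of their sample.

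A pool holds more cells than a single neuron, and across the panel a gene was found more often in pools. In the 8 rats with at least 2 samples of each kind, the share of samples with a Ct was higher in pools for 119 of 132 genes tested, with a median difference of 15.2 percentage points, and 23 genes (17.4%) passed the test across all genes (limma on the difference within animals, adjusted p under 0.05), all of them higher in pools. None of the 4 members tested was among them. Cacna1a was found in 76.3% ± 26.9 of pools and 75.4% ± 18.9 of single neurons (SD, n = 8 rats), a difference of 0.88 points (95% interval -20.2 to 21.9, adjusted p = 0.93 by limma). Cacna1d differed by 5.61 points (-14.0 to 25.2, adjusted p = 0.66 by limma), Cacna1b by -3.99 (-20.9 to 12.9) and Cacna1c by -4.39 (-23.6 to 14.9). Counted over all samples rather than within rats, Cacna1c had the other direction, with 16 of 88 pools (18.2%) against 9 of 98 single neurons, and was found in 2 of 26 pools of 2 to 3 cells and 14 of 62 of 4 to 8 cells. Cacna1e was above the 95% of samples up to which genes were tested, with 96.6% ± 5.06 of pools and 95.1% ± 11.7 of single neurons.

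The T-type genes stood on the other side of the panel in the same comparison. Cacna1h was 32.4 points higher in pools (SE 7.93, adjusted p = 0.019 by limma) and Cacna1g was 26.8 points higher (SE 7.85, adjusted p = 0.030), while Cacna1i was 22.3 points higher without passing the test (adjusted p = 0.097). The difference between the T-type and high-voltage genes was not itself tested. Cacna1b and Cacna1e were both found in about 95% of single neurons, and the 51 tested genes with a mean single-neuron share above 60% had a median difference of 9.68 points, and 8 of them passed the test. Of the 11 other channel genes tested, 2 passed.

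**Figure D4:**
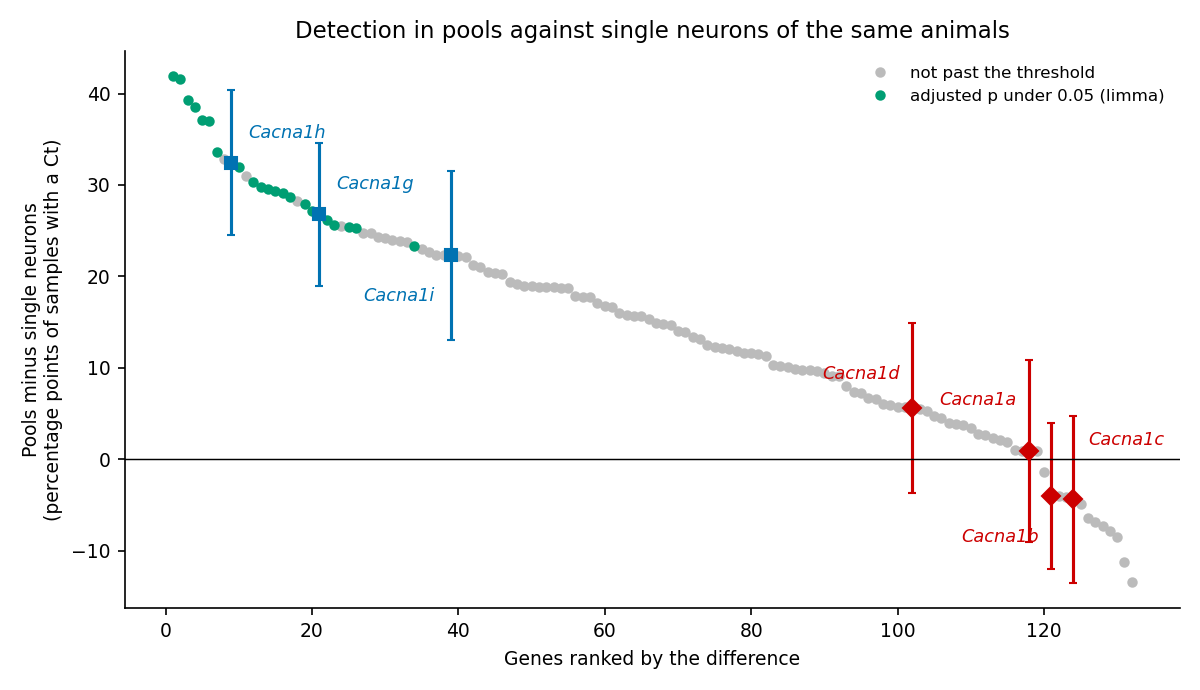
Difference in detection between pools and single neurons of the same 8 rats (vertical axis, percentage points) for 132 genes ranked by it (horizontal axis), with green points past the limma threshold and bars of 1 SE for the named genes. The 4 high-voltage members tested (red) lie at ranks 102 to 124 and the 3 T-type genes (blue) at ranks 9 to 39.

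The result within animals rested in part on RIPC replicate 1, whose 8 pools held Cacna1a in 2, Cacna1d in 2 and Cacna1b in 5, while its 4 single neurons held them in 3, 2 and 4. Without that rat the differences were 8.15 points for Cacna1a, 9.98 for Cacna1d, 0.80 for Cacna1b and 0.35 for Cacna1c, none past the test, while 57 genes were called in place of 23. In levels no gene passed the test (0 of 105 genes, 0.0%, with 10 at an unadjusted p under 0.05 by limma), and the members' differences ran from -0.03 cycles for Cacna1d to 0.63 for Cacna1a.

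The treatments were compared over animals in the pools, which were the more evenly spread samples, with 7 to 17 pools a rat except for 3 in naive replicate 1 and 2 in RIPC replicate 3. The share of pools with Cacna1a was 33.3%, 80% and 100% in the 3 naive rats, 72.7%, 82.4%, 90.9% and 100% in the 4 sham rats, and 25%, 50% and 100% in the 3 RIPC rats. The groups overlapped, and naive and RIPC rats spanned nearly the whole range. The mean was 71.1% ± 34.2 in naive, 86.5% ± 11.7 in sham and 58.3% ± 38.2 in RIPC (SD over rats). The difference of RIPC from sham was -28.2 points (95% interval -66.0 to 9.66, adjusted p = 0.99 by limma, exact two-sided permutation p = 0.29 with a smallest possible 0.029).

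For Cacna1d the share of pools was 80%, 90.9% and 100% in naive, 63.6%, 82.4%, 85.7% and 90.9% in sham and 25%, 87.5% and 100% in RIPC rats. The low value was RIPC replicate 1, and the other RIPC rats lay within the range of naive rats or at its top. Cacna1b was in 66.7%, 90% and 100% of pools in naive, 81.8%, 88.2%, 100% and 100% in sham and 62.5%, 100% and 100% in RIPC rats. Cacna1e was in every pool of the naive rats, in at least 90.9% in each sham rat and in at least 87.5% in each RIPC rat. Cacna1c was in 0%, 0% and 20% of pools in naive, 9.09%, 14.3%, 29.4% and 45.5% in sham and 0%, 12.5% and 50% in RIPC rats. It was thus found in pools of 4 of 4 sham, 1 of 3 naive and 2 of 3 RIPC rats, the 50% being 1 of the 2 pools of RIPC replicate 3. With rats weighted by their number of pools, the Cacna1c difference of RIPC was 2.78 points from naive and -15.0 from sham, against 14.2 and -3.73 unweighted.

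**Figure D5:**
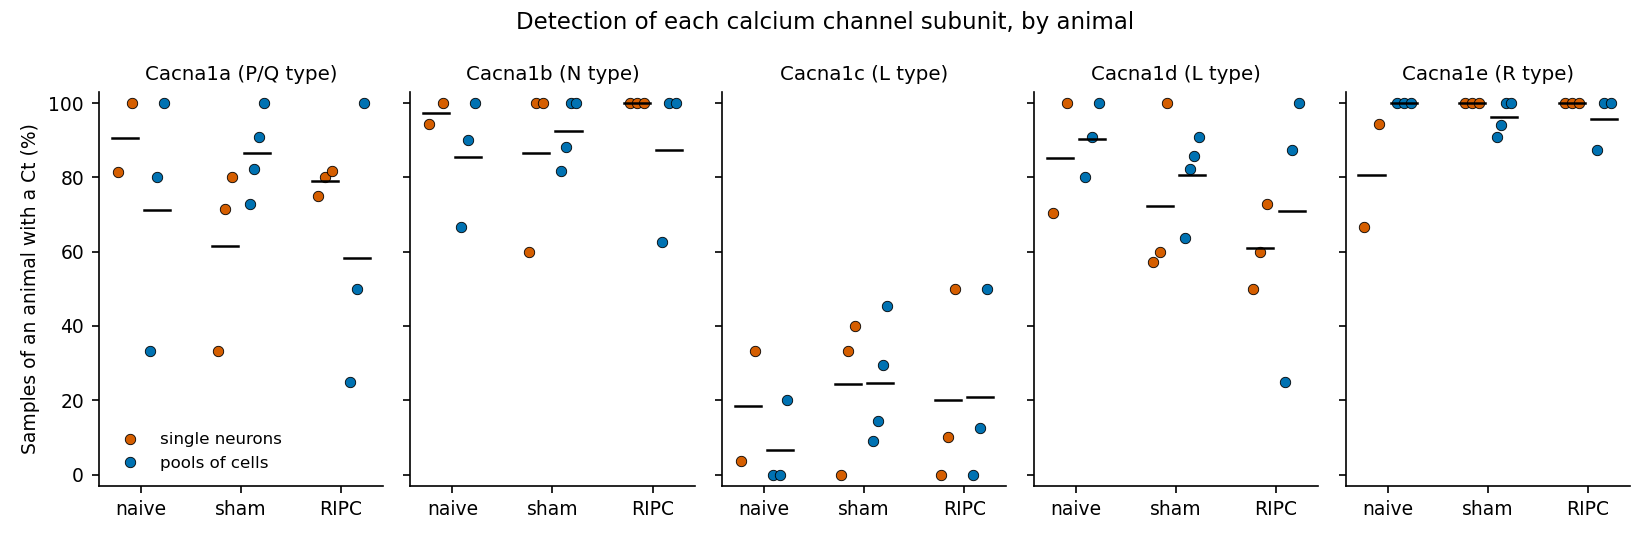
Percentage of an animal's samples with a Ct (vertical axis) for each subunit by treatment, 1 point per rat for single neurons (orange, rats with at least 2) and pools (blue), with black bars at group means. The groups overlap for every subunit in pools, and RIPC replicate 1 gives the lowest blue point of Cacna1a, Cacna1b and Cacna1d.

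No member and no other gene passed the test of detection between treatments. Of 130 genes tested, 0 (0.0%) were called for RIPC against sham, RIPC against naive and sham against naive by limma, with 1, 4 and 2 genes at an unadjusted p under 0.05 and no member among them. Fisher's exact test over pools, which treats pools of 1 rat as independent, also called 0 genes (0.0%) in each comparison, with 10, 8 and 7 at an unadjusted p under 0.05, and its lowest p for a member was 0.051 for Cacna1a in RIPC against sham. The differences of RIPC from sham were -9.82 points for Cacna1d (95% interval -44.1 to 24.4), -5.01 for Cacna1b (-34.6 to 24.6) and -3.73 for Cacna1c (-34.9 to 27.4). Against naive rats, the differences of RIPC were -12.8 points for Cacna1a, 1.94 for Cacna1b, 14.2 for Cacna1c and -19.5 for Cacna1d, and those of sham were 15.4, 6.96, 17.9 and -9.65 points. With single neurons and pools together, RIPC minus naive was -25.3 points for Cacna1d, at an unadjusted p under 0.05 (adjusted p = 0.94 by limma). None of the 10 other channel genes tested was called.

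The pools of RIPC replicate 1 also had the fewest assays with a Ct, 65.4 on average against 71.7 to 100.2 in the other rats. Without this rat the RIPC against sham difference was -11.5 points for Cacna1a, 13.1 for Cacna1d, 7.49 for Cacna1b and 0.44 for Cacna1c, so that the last 3 changed direction. Without RIPC replicate 2, which had Cacna1a in all of its 8 pools, the Cacna1a difference was -49.0 points, at an unadjusted p under 0.05 (adjusted p = 0.48 by limma). In single neurons, where RIPC replicate 1 had 80.5 assays on average, Cacna1a was found in 61.6% ± 24.8 of neurons in 3 sham rats and 78.9% ± 3.53 in 3 RIPC rats, and Cacna1b in 86.7% ± 23.1 and 100% ± 0, the opposite direction to the pools. Cacna1d, in 72.4% ± 24.0 of sham and 60.9% ± 11.4 of RIPC neurons, and Cacna1c, in 24.4% ± 21.4 and 20% ± 26.5, had the direction of the pools. No difference tested here passed, and Cacna1c was not tested in single neurons. The part of yield in these differences was not tested.

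The levels of the 4 members tested in pools overlapped between treatments as well. The mean Cacna1b level was 0.68, 0.72 and 1.49 cycles in naive, 0.57, 0.97, 1.19 and 1.42 in sham and -1.46, 1.64 and 1.72 in RIPC rats. The mean Cacna1d level was -3.35, -2.05 and -1.34 in naive, -1.92, -1.91, -1.40 and -1.04 in sham and -3.99, -1.64 and -1.24 in RIPC rats. RIPC replicate 1 was again the lowest rat for both, and the groups overlapped. Cacna1e had group means of -1.10 ± 1.96 in naive, -0.08 ± 0.42 in sham and -0.20 ± 1.53 cycles in RIPC rats. For Cacna1a, which had a level in 2 naive, 4 sham and 2 RIPC rats, the means were -2.37, -2.25 and -2.53 cycles. Cacna1c had too few values to be tested. Of 99 genes tested by limma, 0 (0.0%) were called in each of the 3 comparisons, and 3, 4 and 0 had an unadjusted p under 0.05 for RIPC against sham, RIPC against naive and sham against naive, with no member among them. The differences of RIPC from sham in level were -0.29 cycles for Cacna1a (95% interval -1.74 to 1.16), -0.40 for Cacna1b (-1.98 to 1.17), -0.72 for Cacna1d (-2.27 to 0.83) and -0.12 for Cacna1e (-2.03 to 1.79). Against naive rats, the level differences of RIPC ran from -0.33 cycles for Cacna1b to 0.89 for Cacna1e, and those of sham from 0.07 for Cacna1b to 1.01 for Cacna1e.

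In single neurons the Cacna1d level of the naive rats did not overlap that of the operated rats. The rat means ran from -1.09 to -0.41 cycles in 2 naive rats, from -2.64 to -2.18 in 3 sham rats and from -2.56 to -1.37 in 3 RIPC rats. The naive value of -0.41 came from the 3 neurons of replicate 2. Sham minus naive was -1.59 cycles (SE 0.52, adjusted p = 0.39 by limma, exact two-sided permutation p = 0.10, the smallest possible). RIPC minus naive was -1.37 cycles (SE 0.52, adjusted p = 0.65 by limma, exact p = 0.20). Both had an unadjusted p under 0.05 by limma (0.015 and 0.029). In each comparison 3 of 53 genes had such a p, and 0 (0.0%) were called. How many of the 53 genes did not overlap between these rats was not counted. In pools the corresponding differences were 0.68 and -0.043 cycles. The levels of Cacna1a, Cacna1b and Cacna1e in single neurons overlapped between all treatments. In detection, Cacna1a was in 33.3% to 80% of single neurons in 3 sham rats and 81.5% to 100% in 2 naive rats. These ranges did not overlap either (exact two-sided permutation p = 0.20). Cacna1e was in 66.7% and 94.4% of single neurons in the 2 naive rats and in 100% in these operated rats.

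Left and right DMV were compared within the 9 rats with 2 or more samples from each side, single neurons and pools together. Cacna1c had the widest difference among the members. Over all 10 rats it was found in 17 of 99 samples from the left and 8 of 87 from the right. Over the 9 rats it was found in 22.9% ± 19.1 of left and 9.88% ± 13.4 of right samples. It was higher on the left in 6 rats and on the right in 3, and the left minus right difference of 13 points (95% interval -1.03 to 27) did not pass the test (adjusted p = 0.98 by limma, exact two-sided sign-flip permutation p = 0.12 with a smallest possible 0.0039). A single rat, sham replicate 3, gave 5 of 8 left and 0 of 4 right samples, and without it the difference was 6.82 points. Without sham replicate 1 or sham replicate 4 it was 16.2 or 16.5 points, at an unadjusted p under 0.05 (adjusted p = 0.98 and 0.97 by limma).

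Cacna1d was higher on the left in all 3 RIPC rats, by 33.3, 8.33 and 42.9 points in replicates 1, 2 and 3, but in only 1 of 2 naive and 1 of 4 sham rats. Cacna1c was also higher on the left in all 3 RIPC rats, by 8.33 to 16.7 points, and in 1 of 2 naive and 2 of 4 sham rats. Whether this differed between treatments was not tested, and over all 9 rats the Cacna1d difference was 6.95 points (95% interval -7.16 to 21.1), with 2.46 without RIPC replicate 3 and 11.4 without naive replicate 2. Cacna1a differed by 5.15 points (-8.41 to 18.7) and by 0.44 without sham replicate 2, Cacna1b by -1.89 (-15.7 to 11.9), and Cacna1e was found in 97.5% of left and 95.1% of right samples. Of 132 genes tested for the share, 0 (0.0%) were called by limma, with 6 at an unadjusted p under 0.05, and of 123 genes tested for the level, 0 (0.0%) were called, with 4. No member was among these, and the members' level differences lay between -0.11 and 0.21 cycles.

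Repeat runs of 5 single neurons give a measure of technical error. Of 25 member calls, 20 were the same in both runs. The 5 that differed were Cacna1b in 2 neurons, Cacna1d in 2 and Cacna1a in 1, each with a Ct in the second run alone. Where both runs had a Ct, the first run was later in 12 of 14 cases, by a median of 1.48 cycles and by up to 7.09. Cacna1e was found in all 10 runs and Cacna1c in none.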

How the data were processed

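Transcripts of laser-captured DMV neurons were reverse transcribed, pre-amplified and measured on a Biomark microfluidic system with EvaGreen. The deposited values are raw Ct of assays that passed melt-curve checks by the authors, in cycles, not normalized, with NA below the limit of detection. No columns were left unused. Which of the chips held a sample is not stated. The methods give 2 limits on samples, and 25% of assays was used because it keeps as many runs as the methods state. The 5 repeat runs were averaged with the first, a gene being detected if either run had a Ct, and repeated assays of a gene were averaged. Animals were the replicates, grouped by treatment per the labels, which name 1 sham rat more than the methods do. A single neuron labelled as RIPC replicate 3 has a title like those of RIPC replicate 2, and the label was used. Shares (percent of an animal's samples with a Ct, genes found in 10% to 95% of samples) and mean levels (at least 2 detected samples) were tested two-sided with limma (version 3.58.1 under R 4.3.3). Benjamini-Hochberg adjustment was over all genes tested, with a threshold of 0.05. The fits were first run on simulated data with large changes and with more pools in the rats that had few. The simulated shares had no spread between rats beyond sampling, so that run does not show the power in these data. Exact permutations enumerated animals or signs within animals, with SciPy 1.17.1 for Fisher's and Wilson's methods. Like genes were named as the 3 with the highest Pearson's r over at least 20 neurons, or the highest phi where a member was found in 10% to 90% of neurons. A gene so named for Cacna1b is not reported here. The rule for the members uses gene symbols alone, but this gene family and the lists were chosen with earlier results of these data known. The ranges of yield, the limit of -4 cycles and the 60% share were chosen after values were seen. All 165 gene symbols matched RefSeq's rat table when case was ignored. Alternatives were other sample limits, centrings, sample types and leaving out each animal.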

Additional observations from a re-analysis of the deposited data

Results flagged for a closer look

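The level of Cacna1e in pools minus that in single neurons of the same rat was 4.42 cycles in sham replicate 4. By Dixon's ratio of gap to range it lay apart from the other rats, in 1 of 25 sets of 4 to 10 rats looked at in this way. The limits of that ratio are nominally passed by chance in about 1 in 20 sets, a rate not worked out for these data. Its 5 single neurons had a mean level of -4.29 cycles and its 16 pools with Cacna1e a mean of 0.13.

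The level of Cacna1d in pools was lower than in single neurons in both naive rats with a value, by a mean of -0.94 cycles, and higher in all 3 sham rats, by a mean of 0.72 cycles. The difference between these groups was not tested.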

How the results depend on the processing

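No member passed the test in any of the 620 values that the alternatives gave for 40 differences (lowest adjusted p 0.077 by limma), and 97 of those values had the other sign. All 4 common members were in 61.2% of single neurons in the main setting. This share was 53.0% with no limit on assays and 54.5% without naive replicate 3. It was 58.2% with a Ct above 20 counted as not detected and 59.8% with first runs only. With at least 50% of the assays required, all 4 common members were found in 95.5% of single neurons, 1 gene (Cacna1g, named after its value was seen) was called by share for RIPC against naive, and the sign turned for RIPC against sham in the Cacna1d share (4.56 points) and the levels of Cacna1b (0.43), Cacna1d (0.16) and Cacna1e (0.38 cycles), for left minus right in the shares of Cacna1a (-3.57) and Cacna1d (-7.37) and the levels of Cacna1a (0.25), Cacna1d (-0.051) and Cacna1e (0.067). In single neurons alone, RIPC against sham turned for Cacna1a (17.4 points, level 0.58), Cacna1b (13.3 points, level 0.16), Cacna1d (level 0.22) and Cacna1e (level 1.23), and left minus right for Cacna1b (2.16 points), while in pools alone it was -3.16 points for Cacna1d. Without centring, left minus right was 0.18 cycles for Cacna1e, pools exceeded single neurons by 1.40 cycles in Cacna1d, and 5 genes were called for that comparison, where the median over all genes moved from -0.18 to 1.19 cycles. Centring without the 5 subunits, an alternative chosen after seeing the data, gave 0.026 cycles for Cacna1d in pools minus single neurons. Leaving out the neuron whose title and rat label differ, also chosen after seeing the data, turned no sign. The causes of these changes were not tested.

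For RIPC against naive, the sign turned at the 50% limit in the Cacna1d share (7.79 points) and the levels of Cacna1b (0.63) and Cacna1d (0.33 cycles), in single neurons in the levels of Cacna1a (0.36), Cacna1b (0.30) and Cacna1e (-0.82), without centring for Cacna1a (0.30) and Cacna1d (0.86), with centring on all detected genes for Cacna1a (0.047) and Cacna1d (0.21), and with no limit on assays in the Cacna1b share (-1.26 points) and the Cacna1d level (0.020). It also turned for Cacna1a with both kinds of sample together (1.64 points), for the Cacna1b share with animals weighted by pools or Fisher's test over pools (-8.33 points each) or on the arcsine square root scale (-0.020), and for the Cacna1b level with undetected values set 1 cycle below the lowest (0.050). For sham against naive, it turned in single neurons for Cacna1a (-29.2 points, level -0.22), Cacna1b (-10.6 points), Cacna1d (level -1.59) and Cacna1e (level -2.05), at the 50% limit for Cacna1d (3.23 points), with animals weighted by pools or Fisher's test for Cacna1b (-0.36 points each), and with no limit for the Cacna1b level (-0.034).

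Leaving out each rat in turn, RIPC against sham ran from -49.0 to -11.5 points for Cacna1a, -11.3 to 7.49 points for Cacna1b, -18.3 to 6.69 for Cacna1c and -24.4 to 13.1 for Cacna1d, and in level from -0.88 to 0.31 cycles for Cacna1a, -0.94 to 0.64 for Cacna1b, -1.24 to 0.13 for Cacna1d and -0.68 to 0.75 for Cacna1e. The highest of these was without RIPC replicate 1 in each case but Cacna1c. Where a group was left with 1 rat that had a level, it was assumed to vary like the others. RIPC against naive ran from -33.6 to 3.89 points for Cacna1a, -7.50 to 14.4 for Cacna1b, -0.42 to 24.6 for Cacna1c and -34.1 to 3.45 for Cacna1d, and in level from -0.76 to 0.43 cycles for Cacna1a, -0.87 to 0.71 for Cacna1b, -0.60 to 0.81 for Cacna1d and -0.21 to 1.76 for Cacna1e. Sham against naive ran from -3.50 to 29.8 points for Cacna1a, -2.49 to 14.2 for Cacna1b, 10.9 (without sham replicate 3) to 24.6 for Cacna1c and -14.8 to -3.98 (without sham replicate 2) for Cacna1d, and in level from -0.43 to 0.68 cycles for Cacna1a, -0.070 to 0.33 for Cacna1b, 0.13 (without naive replicate 1) to 1.13 for Cacna1d and -0.084 to 1.80 for Cacna1e. Left minus right ran from 0.44 to 8.17 points for Cacna1a, -5.69 to 4.13 for Cacna1b, 6.82 to 16.5 for Cacna1c and 2.46 to 11.4 for Cacna1d, and in level from -0.20 to -0.022 cycles for Cacna1a, -0.11 to 0.078 for Cacna1b, 0.10 to 0.30 for Cacna1d and -0.25 to 0.18 for Cacna1e. Pools minus single neurons ran from -4.63 to 8.15 points for Cacna1a, -8.59 to 0.80 for Cacna1b, -12.2 to 0.35 for Cacna1c and 2.33 to 11.6 for Cacna1d, and in level from 0.40 to 0.81 cycles for Cacna1a, 0.0084 to 0.54 for Cacna1b, -0.20 to 0.20 for Cacna1d and 0.0020 to 0.89 for Cacna1e, the lowest for Cacna1a, Cacna1b and Cacna1e being without sham replicate 4. The genes called by share there ran from 5 without sham replicate 1 to 57 without RIPC replicate 1. They were 13 without naive replicate 2, naive replicate 3 or sham replicate 4, and 12 without RIPC replicate 2.

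Animal numbers are shared between treatments but belong to different rats. Deviations of same-numbered rats correlated from -0.33 to 0.37 over 130 genes. Rats of different numbers were not compared, so whether the numbers mark a shared batch was not tested. With the replicate block, 0 genes were called in every treatment comparison, and the Cacna1a level difference was 0.043 cycles for RIPC from sham and 0.46 for RIPC from naive, and that of Cacna1b for sham from naive was -0.057. Pools minus single neurons could not be fitted at the 50% limit, which left too few rats.

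The number of rats and the yield of each sample limit these results. The centred level exists only where a gene was detected.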
